A study of Mus musculus with 4 samples.

Results

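The miR-183 cluster is a group of 3 microRNAs (miRNAs) made from the neighbouring hairpins Mir183, Mir96 and Mir182. All mature miRNAs of these hairpins were taken from the deposited lists of miRNAs that differed between 1 MRL/lpr mouse and 1 B6 mouse in CD4+ T cells of the spleen. They gave 3 of the 114 listed miRNAs, which were miR-182-5p, miR-183-5p and miR-96-5p. Their partners, the mRNAs that the authors' table pairs with them as predicted targets, were 22 of the 212 mRNAs listed as lower in MRL/lpr. The B6 mouse was C57BL/6J. The MRL/lpr mouse, a lupus model, carries the *lpr* mutation of *Fas* (Tnfrsf6lpr) on the MRL background. Both were females of 16 weeks, and no treatment is stated. The T cells were enriched by removing other spleen cells with magnetic beads, and each mouse gave 1 small RNA library and 1 mRNA library. The series text speaks of a second B6 mouse, while the sample labels name 1. With 1 library per strain there was no replicate error and no test between the strains. Strain background, *Fas* genotype, disease and the individual mouse cannot be told apart.

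The 3 miRNAs of the cluster are transcribed together as 1 precursor RNA and are best known from the hair cells and photoreceptors of the sense organs. In mouse helper T cells, IL-2 acting through STAT5 induces miR-182, and miR-182 represses *Foxo1*, a transcription factor that keeps resting T cells quiescent and holds them in circulation. In Th17 cells, IL-6 acting through STAT3 induces the whole cluster, which again represses *Foxo1*. A miRNA finds its target mainly through its seed, the bases near its 5′ end, which pair with matching letters in the mRNA.

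The mature sequences are shown because their seeds are alike without being identical, which bears on how partners were assigned to each miRNA. They are written 5′ to 3′, with the seed (bases 2 to 8) in capitals.
miR-182-5p: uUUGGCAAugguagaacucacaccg
miR-183-5p: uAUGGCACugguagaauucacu
miR-96-5p: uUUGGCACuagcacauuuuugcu
The sequences are those of RefSeq on the mouse build GRCm38.p6, and the deposited sequences of all 3 were the same letter for letter. Positions of the differences below are counted from 1 at the 5′ end. Against miR-182-5p, miR-96-5p differs within the seed by A8C, and miR-183-5p differs by U2A and A8C. MiR-183-5p and miR-96-5p differ within the seed at 1 base only, written A2U from miR-183-5p to miR-96-5p. Beyond the seed the likeness is arranged differently. From base 9 on, miR-182-5p and miR-183-5p share 12 of the 14 bases compared, while miR-96-5p shares 5 of 15 with miR-182-5p and 6 of 14 with miR-183-5p. Over the first 22 bases, miR-182-5p and miR-183-5p match at 18. Thus miR-96-5p resembles the other two in the seed, and miR-182-5p and miR-183-5p resemble each other along their whole length. The DNA letters complementary to bases 2 to 8, the simplest form of a target site, are TTGCCAA for miR-182-5p, GTGCCAT for miR-183-5p and GTGCCAA for miR-96-5p. None of the 113 other listed miRNAs shares bases 2 to 8 with any of the 3. The nearest relative of each within the lists is another member of the cluster, since miR-182-5p and miR-96-5p share bases 2 to 7, and miR-183-5p and miR-96-5p share bases 3 to 8.

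The hairpins lie on the minus strand of chromosome 6 (GRCm38.p6) and are read in the order Mir183, Mir96, Mir182. Mir183 spans 30169668 to 30169737 and Mir96 spans 30169446 to 30169551, with 116 bases between them. Mir182 spans 30165918 to 30165992, which is 3453 bases from Mir96. The whole cluster covers 3820 bases and falls inside the annotated long noncoding RNA gene *Mirc35hg*. The nearest protein-coding genes are *Nrf1* on one side and *Ube2h* on the other. Mature miR-182-5p is at 30165962 to 30165986, miR-96-5p at 30169506 to 30169528 and miR-183-5p at 30169711 to 30169732.

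All 3 miRNAs of the cluster were higher in MRL/lpr. RPM values are the reads of a miRNA per 1000000 trimmed reads of its library, and the trimmed reads came to 33634335 in B6 against 29971024 in MRL/lpr. MiR-182-5p was the most abundant, with 5001 reads (149 RPM) in B6 against 15663 reads (523 RPM) in MRL/lpr. Its fold, MRL/lpr over B6, was 3.51 (95% interval 3.40 to 3.63). MiR-183-5p had 571 reads (17.0 RPM) in B6 against 5819 reads (194 RPM) in MRL/lpr. Its fold was 11.4 (95% interval 10.5 to 12.5). The most abundant member thus had the smallest fold and the middle one the largest. MiR-96-5p was the scarcest, with 87 reads (2.59 RPM) in B6 against 627 reads (20.9 RPM) in MRL/lpr, which gives a fold of 8.09 (95% interval 6.45 to 10.2). These intervals are exact Clopper-Pearson limits of the read share. They cover counting error only and treat each read as independent. Reads made by PCR are not independent molecules, so the limits may be too narrow even for counting error. They say nothing of the spread between mice.

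In both libraries miR-182-5p stood above miR-183-5p, and miR-183-5p above miR-96-5p. Reads of different miRNAs were not calibrated against each other, so this order of reads need not be the order of their amounts. Together the 3 had 5659 reads (168 RPM) in B6 against 22109 reads (738 RPM) in MRL/lpr, which gives a fold of 4.38 (95% interval 4.26 to 4.52). They made up 0.0930% of the authors' miRNA total in B6 and 0.339% in MRL/lpr. The log2 ratio of the miRNA totals themselves is 0.27, and scaling to them lowers each log2 fold by this amount.

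**Figure D1:**
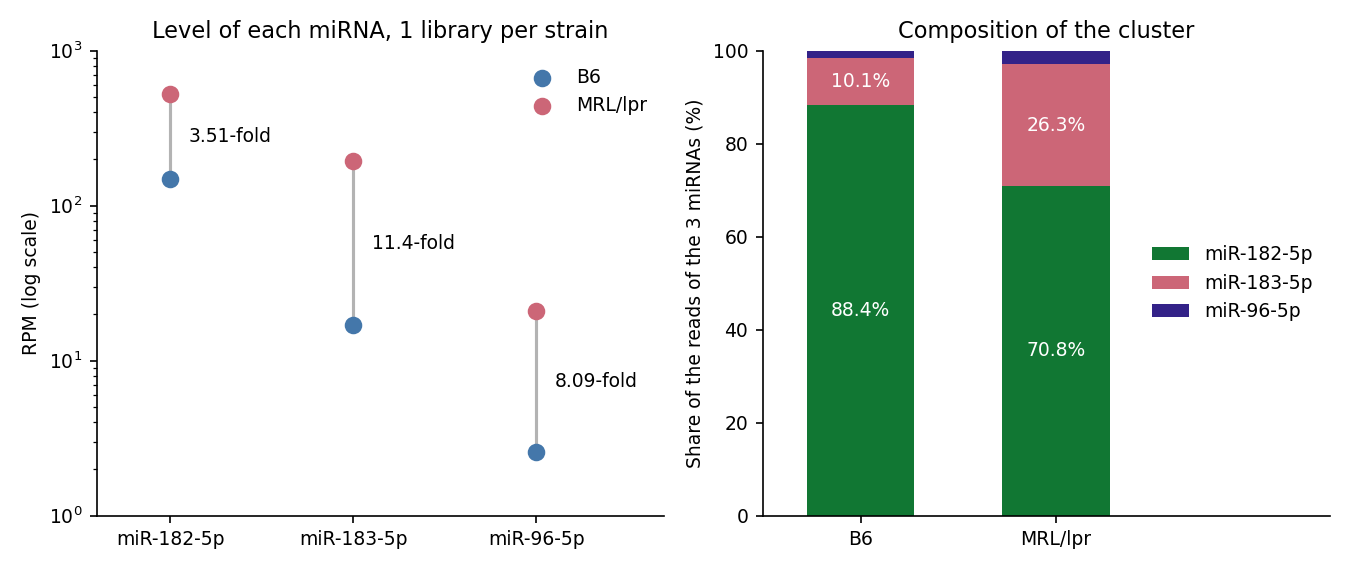
Left, the level of each miRNA of the cluster in RPM on a log axis, with 1 point for the B6 library and 1 for the MRL/lpr library and the fold between them. Right, the share of each miRNA in the reads of the 3 together, in percent, as stacked bars. The MRL/lpr point lies above the B6 point for all 3, and miR-183-5p goes from 10.1% to 26.3% of the cluster.

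The make-up of the cluster differed between the libraries. MiR-182-5p was 88.4% of the cluster's reads in B6 (exact 95% binomial interval 87.5 to 89.2%) and 70.8% in MRL/lpr (70.2 to 71.4%). MiR-183-5p was 10.1% in B6 (9.32 to 10.9%) and 26.3% in MRL/lpr (25.7 to 26.9%). MiR-96-5p was 1.54% in B6 (1.23 to 1.89%) and 2.84% in MRL/lpr (2.62 to 3.06%). Per read of miR-96-5p there were thus 57.5 reads of miR-182-5p in B6 and 25.0 in MRL/lpr, while for miR-183-5p there were 6.56 and 9.28. The ratio between the folds of 2 members does not depend on how the libraries are scaled, so it was compared directly. The fold of miR-183-5p was 3.25 times that of miR-182-5p (95% interval 2.97 to 3.57). The fold of miR-96-5p was 2.30 times that of miR-182-5p (95% interval 1.83 to 2.92). Between miR-183-5p and miR-96-5p, whose hairpins lie closest together, the ratio was 1.41 (95% interval 1.10 to 1.80). The difference of each pair was therefore larger than the counting error of independent reads, narrowly so for the last. This compares 2 libraries and not the strains.

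Of all 114 listed miRNAs 60.5% were higher in MRL/lpr, so a place among the higher ones was common. At 4-fold or more, 36.8% of the listed miRNAs were higher, and 2 of the 3 members, miR-183-5p and miR-96-5p, were among them. Among the 69 higher miRNAs miR-183-5p ranked 18 by fold, miR-96-5p ranked 26 and miR-182-5p ranked 47. By RPM in MRL/lpr miR-182-5p came first of the 3, at rank 10, with miR-183-5p at 15 and miR-96-5p at 36. In B6 the same ranks were 10, 21 and 39. Above the 3 in each of these rankings stand both miR-486-5p and miR-3107-5p, whose reads are identical, so the same reads may be counted there under 2 names. The lists hold only miRNAs with a fold of at least 2 and at least 100 reads over both libraries. No 3p arm of the hairpins was in them, which is not read as an unchanged level. The transcript *Mirc35hg* was not analysed here.

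**Figure D2:**
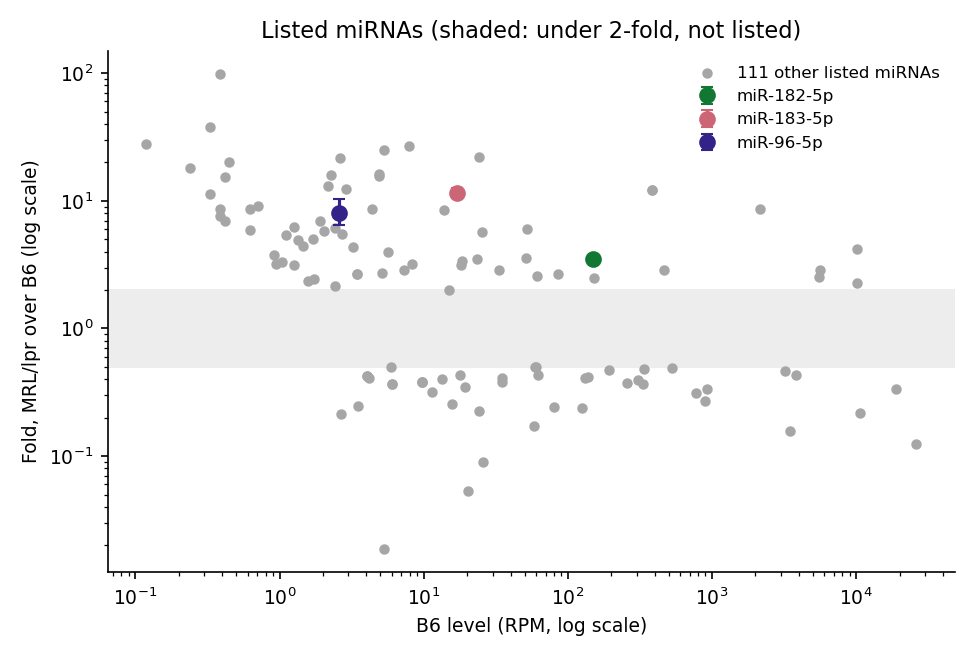
Each point is 1 listed miRNA, with its B6 level in RPM on the x axis and its fold, MRL/lpr over B6, on the y axis, both logarithmic. Bars on the 3 coloured points are 95% counting intervals, and the shaded band marks folds under 2, which the lists leave out. The members lie at 149, 17.0 and 2.59 RPM in B6, with folds of 3.51, 11.4 and 8.09.

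Other neighbouring hairpins were set beside the cluster to see how far folds differ within 1 locus. This grouping was made after the values had been seen. Of the listed miRNAs, 85 of 114 matched a single place in RefSeq, and chains of hairpins on 1 strand with at most 10000 bases between neighbours gave 11 groups of 2 or 3 hairpins. Where both arms of a hairpin were listed, only the arm with more reads over both libraries was kept. Several of the groups lie on chromosome 12, so the 11 need not be separate loci. In each of the 11 groups the listed miRNAs lay on the same side, either all higher or all lower. The highest fold over the lowest was 3.25 in the miR-183 cluster, which ranked 2 of the 11. With 1 arm per hairpin, only the group of let-7e-5p, miR-125a-5p and miR-99b-5p on chromosome 17, which was lower in MRL/lpr, had a wider span, at 4.77. On chromosome 11 the arm left out, miR-144-3p, had a fold of 97.5, beside 21.5 for miR-144-5p and 38.0 for miR-451a. Counted with that arm, the chromosome 11 group too would span more than the miR-183 cluster. The narrowest was that of miR-221-3p and miR-222-3p on chromosome X, at 1.11. Of the groups of 3, the cluster thus lay between let-7e-5p with its neighbours and that of miR-23a-3p, miR-24-2-5p and miR-27a-3p, which spanned 2.27. Members under 2-fold are missing from every group, so the spans cover only the listed miRNAs that were kept.

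**Figure D3:**
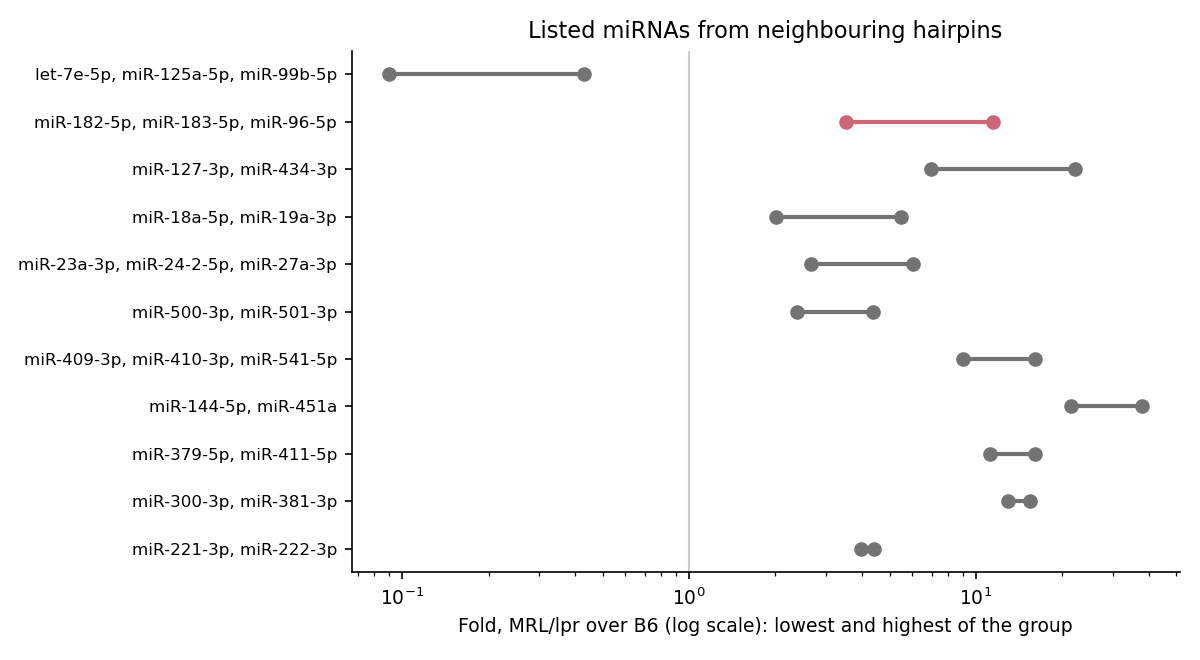
For each of the 11 groups of listed miRNAs from neighbouring hairpins, the lowest and the highest fold, MRL/lpr over B6, on a log axis, joined by a line. Each hairpin is shown by its arm with more reads. The miR-183 cluster, in red, runs from 3.51 to 11.4 and is the second widest of those drawn, and the vertical line marks equal levels.

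The authors' table of lower mRNAs gives the names of the higher miRNAs predicted to target each gene. It pairs miR-96-5p with 9 genes, miR-182-5p with 8 and miR-183-5p with 5. Among the 51 higher miRNAs with at least 1 such partner, the median number was 6 and the highest 14. MiR-96-5p ranked 10, miR-182-5p ranked 13 and miR-183-5p ranked 32, with ties. No gene was paired with more than 1 member of the cluster. MiR-96-5p and miR-182-5p share 6 of their 7 seed bases, as the sequences above show. With 5 to 9 genes each among 212 lower mRNAs, however, few shared genes would be met by chance, so their absence is not read as a finding. Of the 22 partners, 15 carry no other miRNA name (68.2%, against 63.2% of all lower mRNAs). Of the miR-96-5p partners 5 of 9 carry another name, against 1 of 8 for miR-182-5p and 1 of 5 for miR-183-5p. How strong each prediction is was not analysed here, since the table gives no score.

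Values of mRNA are read as FPKM, a fragment number corrected for transcript length and library size, which is the unit of the program whose column names the tables follow. Every gene of this table is at least 2-fold lower in MRL/lpr by construction, so a lower level of a partner is no finding in itself. At 4-fold or more were 8 of the 22 partners, 36.4%, against 29.2% of all 212 lower mRNAs. The median log2 fold, MRL/lpr over B6, was -1.71 for the partners and -1.56 for all lower mRNAs. Both values of the partners lay near those of the whole table. They also rest on low levels, since with 1 FPKM added to both libraries 3 of the 22 partners and 13 of the 212 lower mRNAs were at 4-fold or more, and the medians were -0.84 and -0.85. By miRNA the median was -1.36 for miR-182-5p, -1.82 for miR-183-5p and -1.76 for miR-96-5p. The partners of miR-182-5p, the most abundant member, thus had the smallest median difference, but with 5 to 9 genes each these medians rest on few values.

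**Figure D4:**
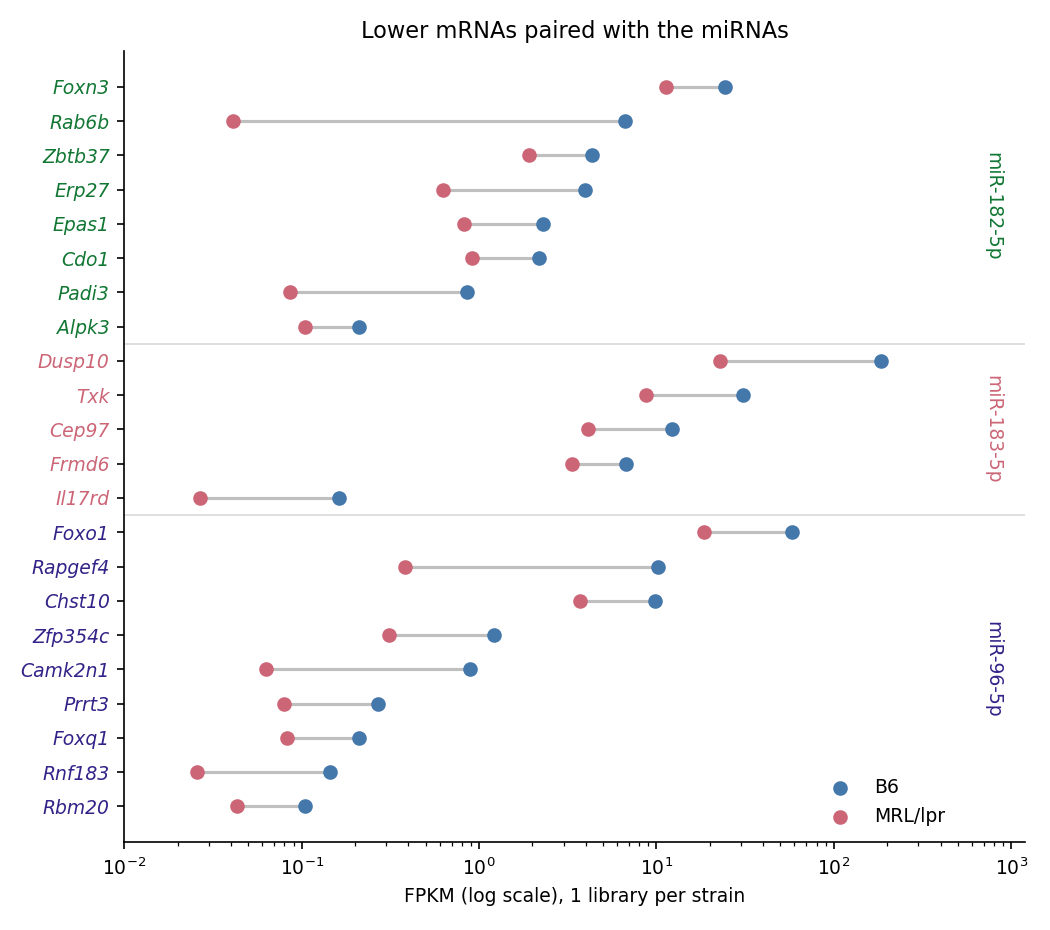
Level of the 22 partner mRNAs in FPKM on a log axis, with B6 in blue and MRL/lpr in red, 1 library each, grouped by the miRNA the authors' table pairs them with. *Dusp10* has the highest level, at 185 FPKM in B6 against 22.7 in MRL/lpr, and *Rab6b* the widest gap, from 6.62 to 0.0408.

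Among the partners that regulate transcription, *Foxo1* on chromosome 3 was the most abundant. It had 58.3 FPKM in B6 against 18.5 FPKM in MRL/lpr, a log2 fold of -1.65, which leaves 31.8% of the B6 level. Its B6 level ranked 10 among the 212 lower mRNAs, while its difference ranked 93. In this table *Foxo1* carries only the name of miR-96-5p, the scarcest member, and not that of miR-182-5p. *Foxn3*, a forkhead repressor of transcription on chromosome 12, is paired with miR-182-5p. It had 24.4 and 11.4 FPKM (log2 fold -1.10), close to the 2-fold limit of the table. *Foxq1*, another forkhead factor, is paired with miR-96-5p and had 0.211 FPKM in B6 against 0.0831 in MRL/lpr, a level so low that its ratio rests on few fragments. These are the 3 genes with a Fox symbol among the lower mRNAs, and all are partners of the cluster, as are 10.4% of all lower mRNAs. The table of 440 higher mRNAs, which holds predicted targets of lower miRNAs only, has none. The 3 Fox genes were singled out after their values had been seen, and whether such genes are more common among the partners was not tested. *Epas1*, which encodes the hypoxia factor HIF-2α, had 2.28 FPKM in B6 against 0.826 in MRL/lpr and is paired with miR-182-5p. The zinc finger gene *Zbtb37*, also paired with miR-182-5p, had 4.33 and 1.92 FPKM. *Zfp354c*, a zinc finger gene paired with miR-96-5p, had 1.21 and 0.310 FPKM. Its level in B6 was 3.91 times that in MRL/lpr, just short of 4-fold.

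Partners that act in signalling included the most abundant gene of the 22. *Dusp10*, on chromosome 1, encodes a phosphatase that switches off the stress kinases p38 and JNK and restrains T cell responses. It had 185 FPKM in B6 against 22.7 FPKM in MRL/lpr, a log2 fold of -3.03, and is paired with miR-183-5p alone. Among all lower mRNAs its B6 level ranked 2 and its difference ranked 19. *Txk*, a T cell kinase of the Tec family on chromosome 5, is also paired with miR-183-5p alone. It had 30.9 FPKM in B6 against 8.77 FPKM in MRL/lpr, a log2 fold of -1.82. The 2 partners of miR-183-5p that act in T cell signalling were thus both well above 10 FPKM in B6. *Rapgef4*, which encodes EPAC2, an activator of Rap proteins that responds to cyclic AMP, had 10.2 FPKM in B6 against 0.380 in MRL/lpr. Its log2 fold of -4.74 ranked 4 among all lower mRNAs, and the table pairs it with miR-96-5p and miR-18a-5p. *Camk2n1*, an inhibitor of the kinase CaMKII, is paired with miR-96-5p and had 0.889 and 0.0633 FPKM, a log2 fold of -3.81. *Il17rd*, a membrane protein that dampens growth factor signalling, is paired with miR-183-5p and had 0.162 and 0.0269 FPKM. *Alpk3*, an alpha kinase of muscle, is paired with miR-182-5p and had 0.211 and 0.105 FPKM. Its level in B6 was 2.01 times that in MRL/lpr, the smallest difference of all 212 genes.

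The gene with the largest difference in the whole table was a partner of miR-182-5p. *Rab6b*, on chromosome 9, encodes a small GTPase of Golgi transport known mainly from neurons. It had 6.62 FPKM in B6 against 0.0408 FPKM in MRL/lpr, a log2 fold of -7.34, and carries no other miRNA name. This rank rests on the very low level in MRL/lpr. With 1 FPKM added to both values its log2 fold was -2.87, behind *Rapgef4* at -3.02 and *Dusp10* at -2.97. *Cep97*, a centrosomal protein that blocks the growth of cilia, is paired with miR-183-5p and had 12.3 and 4.11 FPKM (log2 fold -1.58). *Frmd6*, a FERM domain protein of the Hippo pathway, is paired with miR-183-5p and the imprinted miR-434-3p and had 6.77 and 3.35 FPKM, just inside the 2-fold limit.

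The remaining partners were mostly enzymes. *Chst10*, a sulfotransferase that makes the HNK-1 sugar epitope, is paired with miR-96-5p and miR-23a-3p and had 9.85 FPKM in B6 against 3.72 in MRL/lpr. *Erp27*, a protein of the endoplasmic reticulum, had 3.97 and 0.624 FPKM, and *Cdo1*, the cysteine dioxygenase, had 2.17 and 0.911 FPKM. Both are paired with miR-182-5p alone. The peptidylarginine deiminase *Padi3* is paired with miR-182-5p and miR-330-5p and had 0.857 and 0.0862 FPKM. The other 3 are paired with miR-96-5p and lay under 1 FPKM in both libraries. *Prrt3* had 0.270 and 0.0796 FPKM. *Rnf183*, a ubiquitin ligase, had 0.145 and 0.0258 FPKM. *Rbm20*, a splicing factor of the heart, had 0.104 and 0.0434 FPKM.

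By level the partners resembled the other lower mRNAs. At 10 FPKM or more in B6 were 6 of the 22 (27.3%), against 64 of the 212 lower mRNAs (30.2%). These 6 were *Dusp10*, *Foxo1*, *Txk*, *Foxn3*, *Cep97* and *Rapgef4*. Under 1 FPKM in both libraries were 8 of the 22 (36.4%), against 43.4% of all lower mRNAs. Of the 8 partners at 4-fold or more, only *Dusp10* and *Rapgef4* had at least 10 FPKM in B6. Among the 6 abundant partners the median log2 fold was -1.73, beside -1.45 for the 64 lower mRNAs of that level.

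**Figure D5:**
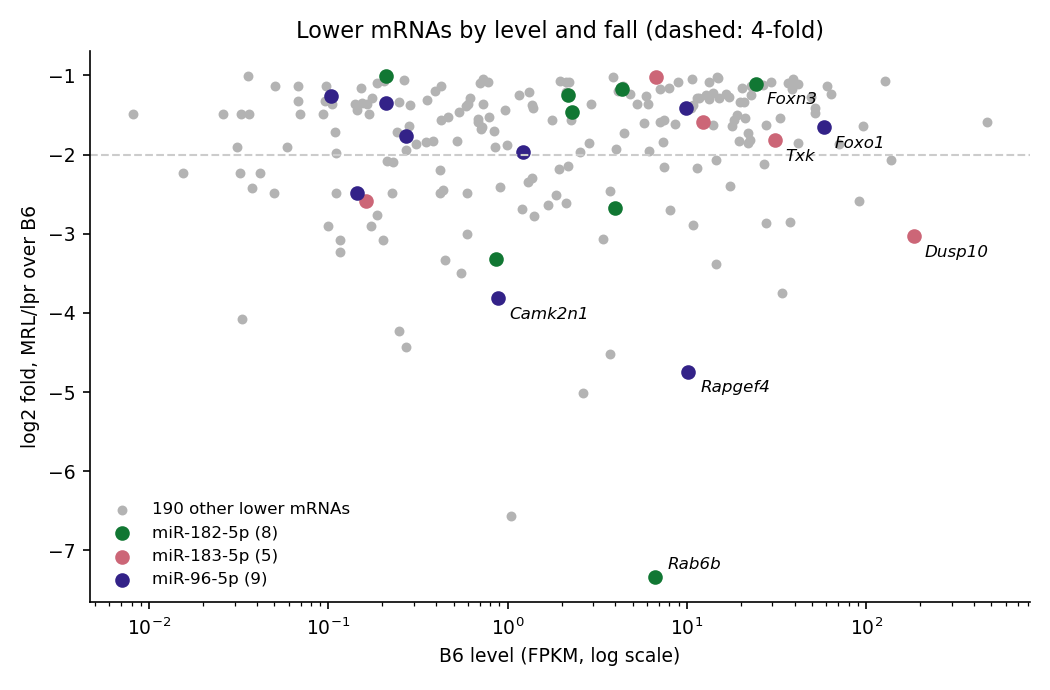
Each point is 1 mRNA listed as lower in MRL/lpr, with its B6 level in FPKM on a log x axis and its log2 fold, MRL/lpr over B6, on the y axis. The 22 partners are coloured by miRNA, the 190 other lower mRNAs are grey and the dashed line marks 4-fold. The partners are spread over the range of the table, with *Rab6b* lowest at -7.34 and *Dusp10* farthest right at 185 FPKM.

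Genes of the FoxO pathway were looked up in both tables, since *Foxo1* is the best known target of the cluster in T cells. Of the 21 genes on a list of the FoxO family and genes that FoxO1 switches on in T cells, 17 were in neither table. The other 4 stood among the lower mRNAs and 0 among the higher ones, while of all 652 listed mRNAs 32.5% were lower. The 4 were *Foxo1* itself, *S1pr1*, *Bcl2l11* and *Tcf7*. Only *Foxo1* is paired with a member of the cluster. *S1pr1*, the receptor that guides T cells out of lymphoid organs, and *Bcl2l11*, which promotes apoptosis, carry 6 other miRNA names each, and *Tcf7*, a factor of naive T cells, carries 1. *Tcf7* had 473 FPKM in B6 against 157 in MRL/lpr, *S1pr1* had 138 and 33.0 FPKM, and *Bcl2l11* had 11.7 and 4.81 FPKM. Of the 18 genes of PI3K and AKT signalling, which controls FoxO proteins, 1 was listed. It was *Phlpp2*, a phosphatase of AKT, with 1.29 FPKM in B6 against 2.94 in MRL/lpr. Of 28 genes collected as targets of the cluster in other tissues, 2 were lower and 1 was higher, and only *Foxo1* was paired with a member. The others were *Bcl2l11* and *Irs1*, an adaptor of insulin signalling at 0.0193 FPKM in B6 against 0.0412 in MRL/lpr. The tables hold predicted targets of the listed miRNAs only, so the genes in neither table are not read as unchanged.

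Genes of the signals known to act on the cluster in T cells were looked up in the same tables. Here and for the FoxO lists, genes were matched by exact symbol. The mRNA names include older symbols, such as *Faim3* and *Lphn1*, so a gene given under another name would be missed. Of the 11 genes of IL-2 and STAT5 signalling, only *Socs3*, a feedback inhibitor of cytokine receptors, was listed, at 39.9 FPKM in B6 against 83.1 in MRL/lpr. Of the 13 genes of Th17 cells, the cytokine gene *Il17a* was lower, with 1.95 FPKM in B6 against 0.932 in MRL/lpr, and the factor *Irf4* was higher, with 10.1 and 35.4 FPKM. None of the 10 genes of T cell identity was in either table, so the labelled cell type could not be checked from these files. Of other cell types, none of 9 B cell and plasma cell genes was listed. Of 12 myeloid genes only *Itgam* was, at 1.71 FPKM in B6 against 28.1 in MRL/lpr, and of 10 erythroid genes only *Tfrc*, at 15.9 and 37.9 FPKM. *Tfrc* was thus well present in B6 too, and 1 gene of a list does not identify a cell type. Among the listed miRNAs, 4 that are abundant in red blood cells or myeloid cells, chosen after their values were seen, were higher in the same MRL/lpr library as the cluster. The erythroid miR-144-3p was 97.5-fold, miR-451a 38.0-fold and miR-486-5p 12.1-fold higher, and miR-223-3p, abundant in myeloid cells, was 27.1-fold higher. These 4 chosen miRNAs lay above the folds of the 3 cluster members. Of the arms not chosen, miR-144-5p was 21.5-fold higher. MiR-486-3p was 5.04-fold higher, below miR-183-5p and miR-96-5p. Of all listed miRNAs, 60.5% were higher. The part of such cells in the levels of the cluster and its partners was not tested. In a bulk preparation, fewer cells that make an RNA and less RNA per cell cannot be told apart.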

How the data were processed

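For miRNAs the authors counted the trimmed reads of each mature miRNA, and the deposited tables give the read counts and the RPM, which equal the counts over all trimmed reads. For mRNAs the authors deposited values called raw, taken here as FPKM from their Cuffdiff-like column names. The deposited columns of fold change, p-value and q-value are the authors' own comparisons and were not used. For the aligner and the annotation, nothing is given in the sources used here. In B6 a single read equals 0.0297 RPM, against 0.0334 RPM in MRL/lpr. The mRNA depth is unknown.

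Folds, exact Clopper-Pearson limits at 95% and conditional odds ratios for the ratios of folds were computed with Python 3.11.15, SciPy 1.17.1, NumPy 2.4.6 and pandas 2.3.3. Matplotlib 3.10.9 drew the plots. The interval was tried on counts simulated with counting error alone, which checks its computation and says nothing of PCR or the spread between mice. Named genes are all 3 miRNAs, all 22 partners and the listed members of the FoxO, PI3K and AKT, known target, Th17, IL-2 and STAT5, T cell, B cell, myeloid and erythroid lists. Members and lists were chosen with earlier results of these data known. The alternatives were added values, other scalings, minimum levels and stricter pairing.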

Additional observations from a re-analysis of the deposited data

How the results depend on the processing

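Each comparison rests on 1 mouse per strain, and depth limits miR-96-5p and the mRNAs under 1 FPKM most. No paired analysis was possible because there was 1 library in each group. The added values and the scaling factors of 1.20 and 1.28 used here cannot turn these folds, so a kept direction says nothing of stability. Scaled to the authors' miRNA totals, the fold was 2.92 for miR-182-5p, 9.51 for miR-183-5p and 3.65 for the 3 summed. Scaled to the listed miRNAs outside the erythroid ones, these folds were 2.75, 8.94 and 3.43, and that of miR-96-5p was 6.32. With 10 RPM added to both libraries they were 3.36, 7.57 and 4.19, with miR-96-5p at 2.46, and with 1 RPM added miR-96-5p was at 6.11. An equal addition shrinks the folds of scarce miRNAs by construction, and with 10 RPM added, but not with 1, that of miR-96-5p lay below that of miR-182-5p. Of the 22 partners, 14 reached 1 FPKM in B6, while 0 were paired with more than 1 member. The 8 partners at 4-fold or more became 3 with 1 FPKM added and 4 at 1 FPKM or more in B6. All lower mRNAs gave 13 of 212 and 32 of 120 under these settings. The median log2 fold of the partners was -0.84 with 1 FPKM added (all lower mRNAs -0.85), -1.37 with 0.1 FPKM added (-1.23) and -1.62 at 1 FPKM or more in B6 (-1.55). For partners of no miRNA outside the cluster it was -1.65, beside -1.62 for all lower mRNAs paired with 1 miRNA. The log2 fold of *Foxo1* was -1.60 with 1 FPKM added.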
